A study of Mus musculus with 2 samples.

Results

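The 8 genes described here belong to the complement system or to its receptors on myeloid cells: C1qa, C1qb and C1qc, C4b, C3, C3ar1, C5ar1 and Itgam. They were chosen by symbol and all 8 were found among the 32285 genes counted. They were measured by single-nucleus RNA sequencing of the subventricular zone (SVZ), a site along the wall of the lateral ventricle where new neurons and glia arise, in mice. There were 2 libraries, 1 per group: a control group of healthy mice, and a group with MIP, a modeled intestinal perforation. Mice were divided into the groups on postnatal day 5, and the SVZ was dissected after 48 h, at postnatal day 7, and frozen. Strain, genotype and the number of animals behind each library are not stated in the sources used here, nor is how the perforation was modeled. With 1 library per group no difference has a replicate check and no test was possible, so each 95% interval given with a value covers counting error only.

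Complement is a cascade of proteins that tags surfaces for removal. In the classical pathway, C1q binds a target and starts cleavage of C4 and then of C3; fragments of C3 stay on the target, where the integrin receptor CR3 on phagocytes binds them, and small fragments of C3 and C5 act as signals through receptors on myeloid cells. In the brain, microglia are the known main source of C1q, and complement tagging is known for its part in synapse removal during development.

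The 3 C1q genes encode the 3 chains that assemble into one C1q molecule. They lie side by side within 18675 bases of chromosome 4 (mm10, chr4:136880129-136898803), all on the minus strand, in the order C1qb, C1qc, C1qa. The gaps between them are 3616 and 2851 bases. Because these neighbours were counted at close to equal UMI numbers in microglia, the bases before the start are shown for the 2 of them matched in RefSeq (GRCm38.p6, minus strand, printed 5′ to 3′ along the gene). For C1qb these are the 250 bases before the RefSeq start. For C1qc the GENCODE start lies inside that window, so only the 99 bases before it are printed. Capitals mark GAGGAA, or GAGGAAGT where the longer form is present, a purine-rich motif of the kind bound by the myeloid factor PU.1, in either orientation. The first covers chr4:136886201-136886450 and the second chr4:136893066-136893164.
C1qb: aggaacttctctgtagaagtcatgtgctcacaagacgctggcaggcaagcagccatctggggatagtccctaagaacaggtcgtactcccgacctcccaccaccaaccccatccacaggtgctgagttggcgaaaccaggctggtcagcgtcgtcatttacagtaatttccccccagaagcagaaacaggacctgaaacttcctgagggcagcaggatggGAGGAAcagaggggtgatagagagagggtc
C1qc: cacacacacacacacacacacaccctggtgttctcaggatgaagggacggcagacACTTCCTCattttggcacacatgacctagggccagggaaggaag

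C1qb held GAGGAA 43 to 38 bases before its GENCODE start and 30 to 25 before its RefSeq start. C1qc held the longer GAGGAAGT in reverse, 44 to 37 bases before its GENCODE start and 195 to 188 before its RefSeq start. GAGGAAGT was found in 2.44% and GAGGAA, which it contains, in 23.3% of 32851 windows of 250 bases before a RefSeq start, both strands searched. Of the 6 members matched in that table, searched over the same length, Itgam also held GAGGAA, at 2 places, and C3, C3ar1 and C5ar1 held neither. C1qa and C4b were not matched. A match of these letters is a description and not a binding site.

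The control library held 16964 barcodes and 146730970 UMIs (unique molecular identifiers, each standing for 1 captured RNA molecule), and the MIP library 12366 barcodes and 100823376 UMIs. After filtering, 14548 control and 10891 MIP nuclei were kept, with medians of 5630 and 6008 UMIs. The libraries shared 115 barcode sequences, 0.678% of the control and 0.930% of the MIP barcodes, of which 2 and 1 were microglia-like nuclei. The X-inactivation RNA Xist gave 262103 control and 165 MIP UMIs, and 4 Y-linked genes summed to 53 and 47673, so sex and group cannot be told apart. Classes were named from marker genes that hold none of the 8, and the name means resemblance only. Microglia-like nuclei were 298 of the control (2.05%) and 352 of the MIP nuclei (3.23%), and all 12 microglial markers were detected in both.

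Across all kept nuclei the 8 genes differed widely in UMIs caught. C1qa had 1176 control and 1300 MIP UMIs, C1qb 1204 and 1325, and C1qc 1080 and 1117. C4b had 187 and 215, Itgam 266 and 355, and C3ar1 137 and 137. C5ar1 had 43 and 51, and C3 only 19 and 22. C3 is therefore near the limit of what these libraries resolve, and the C1q genes are the best measured.

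C1q was highest in microglia-like and border macrophage-like nuclei. Levels are UMIs per 1000000 UMIs of a class (CPM), and C1q is the sum of its 3 genes. In microglia-like nuclei C1q was at 1131 CPM (1066 to 1198) in the control library, from 1131 UMIs, and at 1784 CPM (1701 to 1870) in the MIP library, from 1722 UMIs. Border macrophages, the resident macrophages of meninges and vessels, were rarer: 22 control and 24 MIP nuclei, below the 30 nuclei set for a level, had 3169 CPM (2817 to 3552) and 2389 CPM (2125 to 2678). Microglia-like nuclei held 32.7% (31.1 to 34.3) of all control C1q UMIs and 46.0% (44.4 to 47.6) of all MIP C1q UMIs, while being a small share of the nuclei. Of the remaining 2329 control and 2020 MIP C1q UMIs, border macrophage-like nuclei held 295 and 296. The other 2034 and 1724 lay outside both macrophage classes.

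Averaged over large groups, those outside UMIs were spread nearly evenly over nuclei. In 8 other named classes and the unnamed nuclei of ordinary and of low depth, 10 groups in all, the mean lay between 0.10 and 0.154 C1q UMIs per nucleus in the control library. In the MIP library it lay between 0.158 and 0.180. Cholinergic neuron-like nuclei, left out of this range for their number, had 2 and 8 C1q UMIs in 52 nuclei each. Fibroblast-like nuclei, also left out, are described below. Single clusters varied more: in the MIP library unnamed ones ran from 0.075 (9 UMIs in 120 nuclei) to 0.3 (6 UMIs in 20 nuclei). Median depth over the same 10 groups ran from 1134 to 14389 UMIs in the control and from 689 to 11534.5 in the MIP library. Deep and shallow nuclei thus held nearly the same number of C1q molecules, in a range of 1.53-fold and 1.14-fold, whereas the CPM values of the groups spanned 14.1-fold and 16.1-fold. Microglia-like nuclei held a mean of 3.8 and 4.89 C1q UMIs. The mean of spiny projection neuron-like nuclei, striatal neurons not known as a source of C1q, was 0.136 and 0.164, or 3.59% and 3.36% of the microglial mean.

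**Figure D1:**
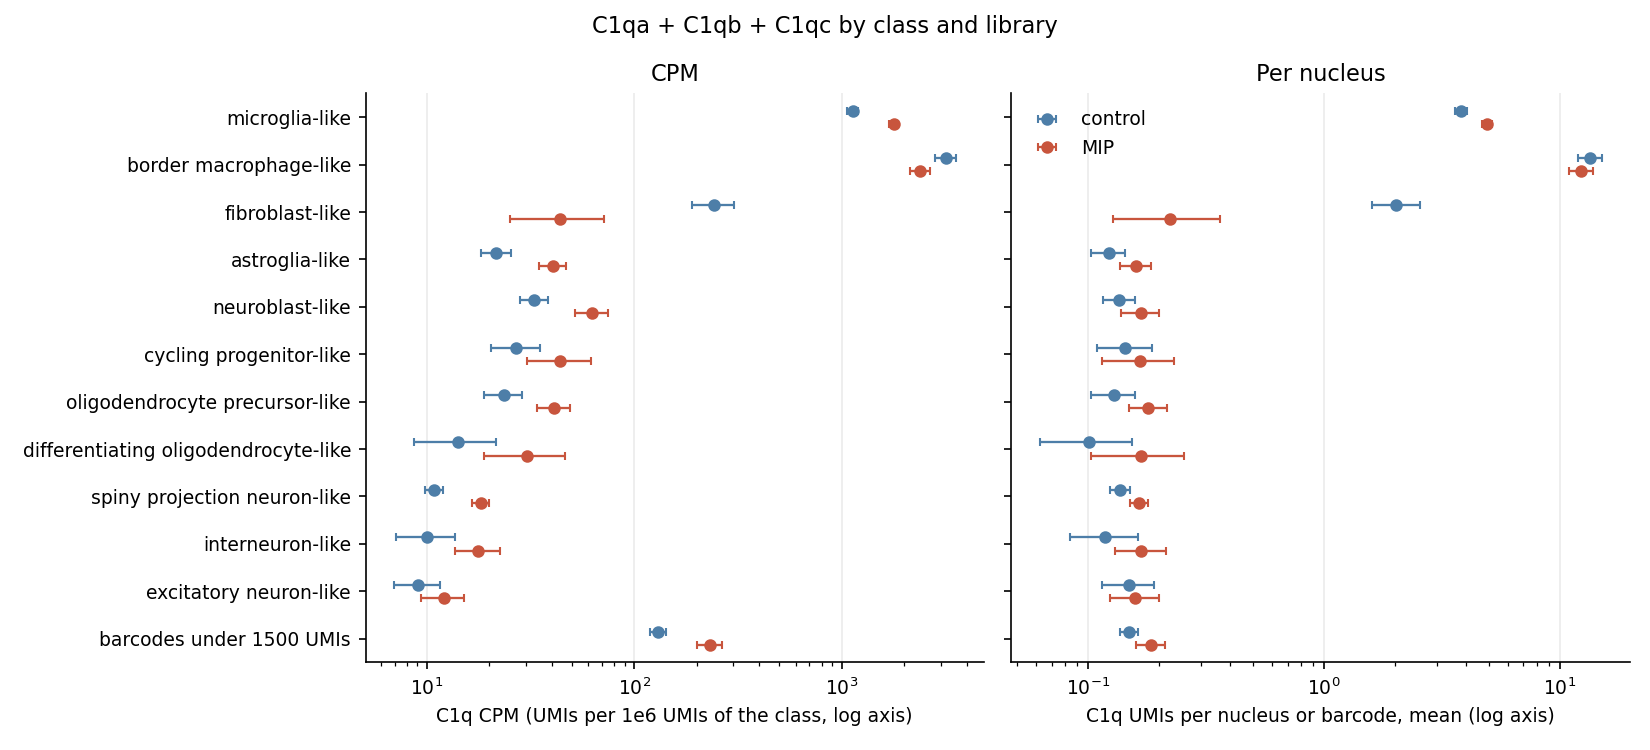
C1q (C1qa + C1qb + C1qc) by class in the control (blue) and MIP (red) library, as CPM of the class (left) and mean UMIs per nucleus (right), both on log axes; bars are exact 95% Poisson intervals of counting error. On the right, the 8 neural classes plotted sit between 0.10 and 0.180 UMIs per nucleus, while microglia-like nuclei sit at 3.8 and 4.89; the control fibroblast-like point rests on 1 nucleus with 70 UMIs.

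Free RNA, which leaks from broken cells into every droplet, was approximated by barcodes with under 1500 UMIs outside the macrophage classes. There C1q was at 130 CPM (119 to 142) in 3440 control barcodes and at 231 CPM (200 to 266) in 1073 MIP barcodes, or 0.149 and 0.185 UMIs per barcode. Microglia-like nuclei, at 3.8 and 4.89 UMIs per nucleus, stood far above that. Barcodes chosen for low depth have high CPM for the same number of free molecules, so classes are set against them per nucleus. Neuroblast-like nuclei, the highest of the neural classes, had 33.0 CPM in the control and 62.6 CPM in the MIP library, cycling progenitor-like nuclei 27.0 and 44.1, and oligodendrocyte precursor-like nuclei 23.5 and 41.0. Astroglia-like nuclei had 21.6 and 40.5 CPM, spiny projection neuron-like nuclei 10.9 and 18.2, and excitatory neuron-like nuclei 9.04 and 12.1. Per nucleus none of the named neural classes had a mean above that of the shallow barcodes, 0.149 (0.137 to 0.163) and 0.185 (0.16 to 0.212). No barcode had under 1027 (control) or 590 (MIP) UMIs, so empty droplets were not measured. Shallow barcodes held 36.8 and 82.2 C1q UMIs per 100 UMIs of microglial markers, against 12.8 and 19.1 in microglia-like nuclei. The source of the C1q UMIs in the neural classes was not tested. Over the full order of neural classes by CPM, each interval overlapped the next, but classes further apart did not all overlap. Control neuroblast-like nuclei (28.2 to 38.4) lay above spiny projection neuron-like nuclei (9.83 to 11.96). MIP neuroblast-like nuclei (51.9 to 74.8) lay above excitatory neuron-like nuclei (9.41 to 15.2).

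Fibroblast-like nuclei of the control library were the exception at 242 CPM, from 75 C1q UMIs. A single nucleus held 70 of them, together with 136 UMIs of border macrophage markers and 312 of fibroblast markers at a depth of 20554 UMIs. The other 36 control nuclei of the class had 5 C1q UMIs, or 17.3 CPM (5.62 to 40.4), and the 72 MIP nuclei had 16, or 44.0 CPM. Per nucleus these were 0.139 and 0.222 (0.127 to 0.361) C1q UMIs, so without that nucleus fibroblast-like nuclei did not stand apart from the shallow barcodes. Outside the macrophage classes, 1789 of 14228 control and 1539 of 10515 MIP nuclei had a C1q UMI, and 91.3% and 89.9% of them had exactly 1; only 3 and 2 had 5 or more.

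The 3 subunits were caught in nearly equal numbers in microglia-like nuclei. C1qa, C1qb and C1qc made 34.7%, 31.6% and 33.7% of the control C1q UMIs there, and 33.0%, 34.6% and 32.3% of the MIP ones. Outside both macrophage classes C1qb made the largest part, 36.8% and 38.0%, and C1qc the smallest, 29.99% (28 to 32.0) and 27.0% (24.9 to 29.2). The share of C1qc outside lay below that in microglia-like nuclei in both libraries, with intervals that met only for the control (30.9 to 36.5). Over 22 profiles (11 classes in 2 libraries), C1qa and C1qc were each other's nearest gene by log2(CPM + 1) among 19879 genes (Pearson r = 0.97), and the closest 2 genes of each C1q gene were the other two. The next was Fcer1g for C1qb (r = 0.96), Ctsz for C1qc (r = 0.95) and Ptbp3 for C1qa (r = 0.95). These points share 2 libraries, their depth and their free RNA, so the values describe likeness only.

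In microglia-like nuclei all 3 C1q genes were higher in the MIP library. C1qa was at 393 CPM in the control and 590 CPM in the MIP library, from 393 and 569 UMIs, with a log2 ratio of 0.59 (0.40 to 0.77). C1qb was at 357 and 618 CPM, from 357 and 596 UMIs, a log2 ratio of 0.79 (0.60 to 0.98). C1qc was at 381 and 577 CPM, from 381 and 557 UMIs, a log2 ratio of 0.60 (0.41 to 0.79). Their sum had a log2 ratio of 0.66 (0.55 to 0.77), or 1.58-fold, and the intervals of the levels did not overlap for any of the 3. C1qa and C1qc lay just past 1.5-fold, at 1.501-fold and 1.515-fold. Counted per nucleus the difference was smaller, 3.8 against 4.89 C1q UMIs, a log2 ratio of 0.37 (0.26 to 0.48), and microglia-like nuclei of the MIP library were shallower, with a median of 2662 UMIs against 3104. C1q in the shallow barcodes was also higher in the MIP library, by 0.30 (0.06 to 0.54) on the log2 scale per barcode. On that of CPM it was higher by 0.83 (0.59 to 1.07), at median depths of 1126 and 682 UMIs. Spiny projection neuron-like nuclei had a log2 ratio of 0.27 (0.08 to 0.47) per nucleus.

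The distribution over nuclei was shifted toward more UMIs. Microglia-like nuclei held a median of 3 (control) and 4 (MIP) C1q UMIs, with upper quartiles of 5 and 7. No C1q UMI was seen in 5.37% of control and 3.13% of MIP nuclei, and 5 or more were seen in 29.9% and 45.5%. All 3 subunits were seen together in 33.6% and 49.1% of nuclei. After each nucleus was thinned to 1500 UMIs, which left out 3 control and 13 MIP nuclei, 75.9% (70.6 to 80.7) of control and 88.5% (84.6 to 91.7) of MIP microglia-like nuclei had a C1q UMI; unthinned shares were 94.6% and 96.9%. The same thinning gave 1.59% and 3.07% in spiny projection neuron-like nuclei, against 12.5% and 14.6% unthinned at median depths of 10895 and 7974 UMIs.

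**Figure D2:**
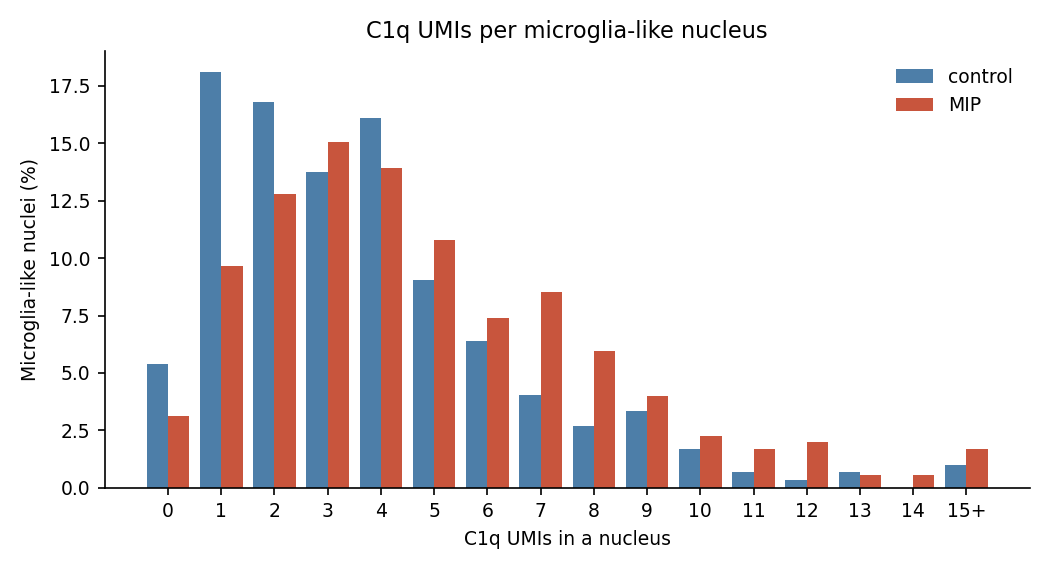
Share of microglia-like nuclei (%, y axis) by the number of C1q UMIs in the nucleus (x axis) in the control (blue, 298 nuclei) and MIP (red, 352 nuclei) library. The MIP bars are lower from 0 to 2 UMIs and higher from 5 to 8, with medians of 3 and 4.

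Other features of the microglia-like nuclei moved between the libraries too, and their part in the C1q result was not tested. The sum of the 12 microglial markers was at 8847 CPM in the control and 9365 CPM in the MIP library, so C1q stood at 12.8 and 19.1 UMIs per 100 marker UMIs. P2ry12, a purine receptor, had a log2 ratio of 0.09, Siglech, a lectin of resting microglia, -1.96, and Ptprc, the leukocyte antigen CD45, 1.03. The 7 border macrophage markers summed to 178 UMIs (178 CPM) in the control and 632 UMIs (655 CPM) in the MIP library. Mrc1, the mannose receptor, gave 171 and 452 of these and F13a1, a clotting factor subunit, 3 and 158, while Cd163 had 1 and 1 UMIs, Pf4 2 and 1, Ms4a7 1 and 14, Cbr2 0 and 6, and Lyve1 0 and 0. In nuclei with no UMI of any of the 7, 212 control and 167 MIP, the C1q log2 ratio was 0.68 (0.54 to 0.83). Markers of spiny projection neurons in the microglia-like nuclei summed to 860 and 550 CPM, and those of astroglia to 456 and 263 CPM. At a finer clustering resolution the microglia-like nuclei fell into 1 cluster of 18 control and 331 MIP nuclei, 1 of 238 and 2, and 1 of 42 and 19 with cell cycle genes.

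Border macrophage-like nuclei went the other way. Their C1q was lower in MIP, with a log2 ratio of CPM of -0.41 (-0.64 to -0.17), from 295 and 296 UMIs. C1qb had 99 control and 74 MIP UMIs, with a log2 ratio of -0.83 (-1.29 to -0.38), C1qa 107 and 128, with -0.15 (-0.54 to 0.23), and C1qc 89 and 94, with -0.33 (-0.77 to 0.10). Per nucleus the C1q means were 13.4 and 12.3 UMIs, with a log2 ratio of -0.12 (-0.36 to 0.12) that did not exclude 0. These values come from 22 and 24 nuclei.

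C4b, the component cleaved after C1q binds, had another pattern over the classes. Fibroblast-like nuclei had 45.3 CPM (24.7 to 75.9) in the control and 49.5 CPM (29.3 to 78.2) in the MIP library, from 14 and 18 UMIs. Astroglia-like nuclei had 15.9 CPM (13.01 to 19.2) and 20.9 CPM (16.8 to 25.8), from 106 and 88 UMIs, which were 56.7% and 40.9% of all C4b UMIs. Border macrophage-like nuclei had 85.9 and 161 CPM, from only 8 and 20 UMIs. Shallow barcodes had 3.79 CPM (2.12 to 6.25) and 8.17 CPM (3.28 to 16.8), and spiny projection neuron-like nuclei 0.21 and 0.73 CPM. Unlike C1q, C4b differed between neural classes per nucleus: astroglia-like nuclei had 0.0898 and 0.0822 UMIs, and spiny projection neuron-like nuclei 0.00264 and 0.00657. Shallow barcodes had 0.00436 (0.00244 to 0.00719) and 0.00652 (0.00262 to 0.0134) C4b UMIs, far below astroglia-like nuclei (0.0735 to 0.109 and 0.066 to 0.101). The astroglial log2 ratio of MIP to control was 0.40 (-0.03 to 0.82) on CPM and -0.13 (-0.55 to 0.29) per nucleus, neither of which excluded 0. Within astroglia the 2 clusters had 12.2 and 23.99 CPM in the control and 20.8 and 21.4 CPM in the MIP library.

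C4b in microglia-like nuclei was nearly confined to the MIP library. It had 2 UMIs in the control nuclei, 2.0 CPM (0.24 to 7.22), and 42 in the MIP nuclei, 43.5 CPM (31.4 to 58.8). The log2 ratio was 4.44 with a wide interval of 2.50 to 7.54, because the control value rests on 2 UMIs. In the MIP library 37 of 352 nuclei, or 10.5% (7.51 to 14.2), held a C4b UMI, and no nucleus held more than 4; in the control 2 of 298 did. After thinning to 1500 UMIs the shares were 0.339% (0.00858 to 1.87) and 5.31% (3.18 to 8.26). MIP microglia-like nuclei had close C4b levels with and without border macrophage marker UMIs: 43.7 CPM in the 185 with one and 43.3 CPM in the 167 without. Among nuclei without one, there were 2 control UMIs in 212 nuclei and 19 MIP UMIs, and the log2 ratio was 3.91 (1.86 to 7.05). MIP microglia-like nuclei, at 0.119 (0.086 to 0.161) C4b UMIs per nucleus, lay above the shallow barcodes, and the control interval (0.000813 to 0.0242) held theirs. C4a, the close copy of C4b on chromosome 17, had 1 and 0 UMIs in microglia-like nuclei, and reads that could belong to either gene may be split or lost between them.

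**Figure D3:**
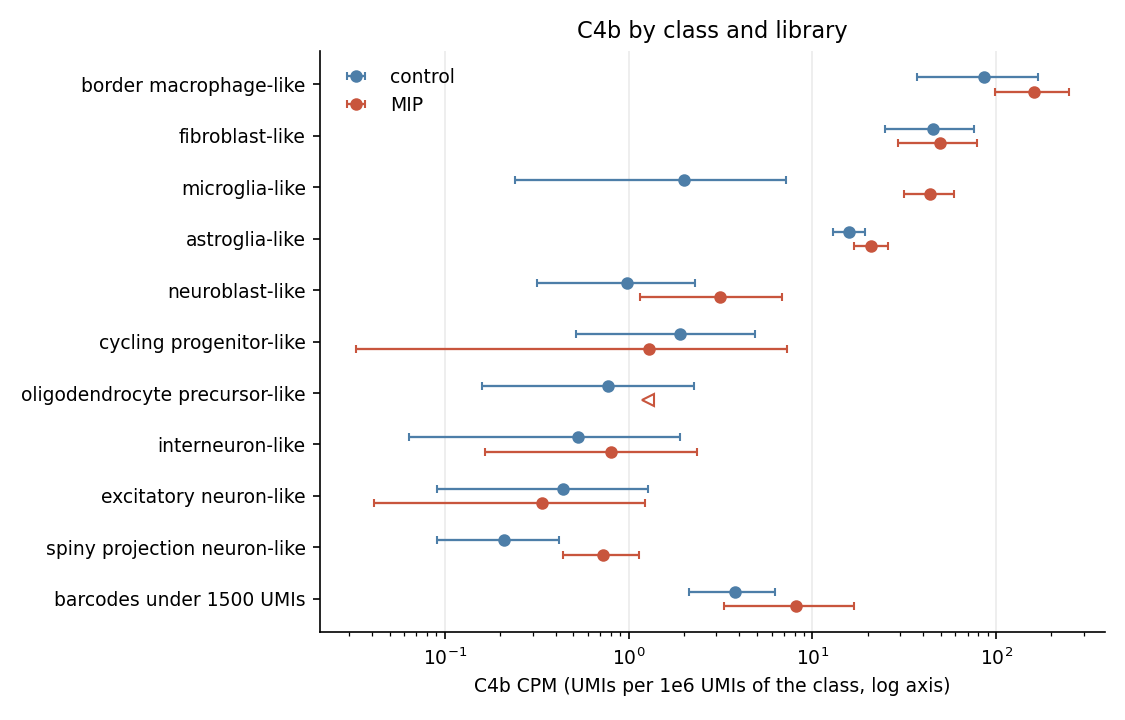
C4b CPM of each class (x axis, log) in the control (blue) and MIP (red) library with exact 95% Poisson intervals; an open triangle marks the upper bound of a class with 0 UMIs. Microglia-like nuclei are at 2.0 in the control library and 43.5 in MIP, while for fibroblast-like and astroglia-like nuclei the intervals of the 2 libraries overlap.

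C3, on which all pathways converge, was barely detected. Microglia-like nuclei had 3 control and 4 MIP UMIs, 3.0 CPM (0.62 to 8.76) and 4.14 CPM (1.13 to 10.6), and shallow barcodes 0 and 2 UMIs. In the 3440 control barcodes a count of 0 allows up to 0.758 CPM. A difference in C3 between the libraries was not detectable at this depth: the log2 ratio in microglia-like nuclei was 0.47, with an interval of -2.10 to 3.24.

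Of the 3 receptor genes among the 8, Itgam had the largest share of its UMIs in microglia-like nuclei. Itgam encodes the alpha chain of CR3, which binds C3 fragments. It was at 211 CPM (183 to 241) in the control and 307 CPM (273 to 344) in the MIP library, from 211 and 296 UMIs, and these were 79.3% and 83.4% of all Itgam UMIs. Shallow barcodes had 1.26 and 8.17 CPM from 5 and 7 UMIs, and spiny projection neuron-like nuclei 0.34 and 0.38 CPM from 13 and 10 UMIs. Per nucleus, the Itgam mean of spiny projection neuron-like nuclei was above that of the shallow barcodes in the control and below it in MIP. It was 0.606% and 0.411% of the microglial mean. The log2 ratio of MIP to control was 0.54 (0.28 to 0.80) on CPM, below 1.5-fold, and 0.25 (-0.01 to 0.51) per nucleus, which no longer excluded 0. Cd37 (r = 0.99), Arhgap45 (r = 0.98) and Gm2629 (r = 0.98) had the patterns most like it over the 22 profiles. Itgb2, the beta chain that pairs with Itgam, had 32 and 62 UMIs in microglia-like nuclei, a log2 ratio of 1.01 (0.37 to 1.67).

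C3ar1, the receptor for the C3a fragment, was at 43.0 CPM (31.1 to 57.9) in control and 78.7 CPM (62.0 to 98.6) in MIP microglia-like nuclei, from 43 and 76 UMIs. The log2 ratio was 0.87 (0.32 to 1.45) on CPM and 0.58 (0.02 to 1.16) per nucleus. Its level was highest in border macrophage-like nuclei, at 172 and 129 CPM from 16 UMIs in each library, with a log2 ratio of -0.41 (-1.51 to 0.68) that did not exclude 0. Outside microglia-like nuclei C3ar1 had 94 and 61 UMIs, of which 29 and 24 lay in spiny projection neuron-like nuclei at 0.76 and 0.92 CPM. Those came from 3028 control and 2892 MIP nuclei, and shallow barcodes had 7 and 3 C3ar1 UMIs. Per nucleus, spiny projection neuron-like nuclei had 6.64% and 3.84% of the microglial C3ar1 mean. Unlike for C1q, their C3ar1 mean per nucleus was above that of the shallow barcodes in both libraries. With 7 and 3 UMIs the shallow means are imprecise, and the reason for the difference was not tested. Clec4a3, P2ry6 and F630028O10Rik had the nearest patterns to it (r = 0.98, 0.98 and 0.97).

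C5ar1, the receptor for the C5a fragment, was at 13 CPM (6.92 to 22.2) in control and 36.3 CPM (25.3 to 50.4) in MIP microglia-like nuclei (13 and 35 UMIs), a log2 ratio of 1.48 (0.53 to 2.52). In border macrophage-like nuclei it had 18 and 7 UMIs, 193 and 56.5 CPM, a log2 ratio of -1.77 (-3.28 to -0.45). Over all kept nuclei, the 43 control C5ar1 UMIs lay in only 26 nuclei, and the 51 MIP UMIs in 45. Control UMIs were thus clumped in few nuclei, which that interval does not cover. C5ar2, a second C5a receptor, had 38 control and 8 MIP UMIs in microglia-like nuclei, a log2 ratio of -2.20 (-3.51 to -1.07), opposite in direction to C5ar1.

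Of the 7 members with at least 20 UMIs in microglia-like nuclei, 6 were higher in the MIP library by 1.5-fold or more, against a background of 12.1% of 10724 genes, and 0 were lower, against 22.2%. Itgam was the member that did not reach it, and C3 had too few UMIs. C4b and C5ar1 had 20 UMIs only with the MIP library added, where they were high. Of the 5 members with at least 20 in each library, 4 were higher, the C1q genes and C3ar1. No background was counted for that limit, so this count has no matched comparison. Among genes with at least 60 UMIs over both libraries, 12.4% of 6591 were higher. Counted per nucleus, only C4b and C5ar1 were higher by 1.5-fold (background 5.59%, and 38.0% lower), and 0 of the other 5. Going from CPM to UMIs per nucleus lowers the log2 ratio of every gene in microglia-like nuclei by the same amount, and took the median of all genes from -0.11 to -0.40. Of 18 other complement genes with at least 20 UMIs, 1 was higher (Itgb2) and 4 were lower (C5ar2, Colec12, C1qbp and Csmd2) on CPM. The shares over all genes were the same 12.1% higher and 22.2% lower, so the lower count was near its background. The median log2 ratio of the 18 was -0.22, against -0.11 over all genes. Lrp1, a large endocytic receptor, had 400 and 510 UMIs in microglia-like nuclei and a log2 ratio of 0.40 (0.21 to 0.59). Cfb, the protease of the alternative pathway, had 2 and 15 UMIs, too few for that count. Itgax, the alpha chain of CR4, had 15 and 1, and was picked after its values were seen. All 62 genes of the complement list were in the files, and 17 of them had 1 to 59 UMIs over the kept nuclei.

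**Figure D4:**
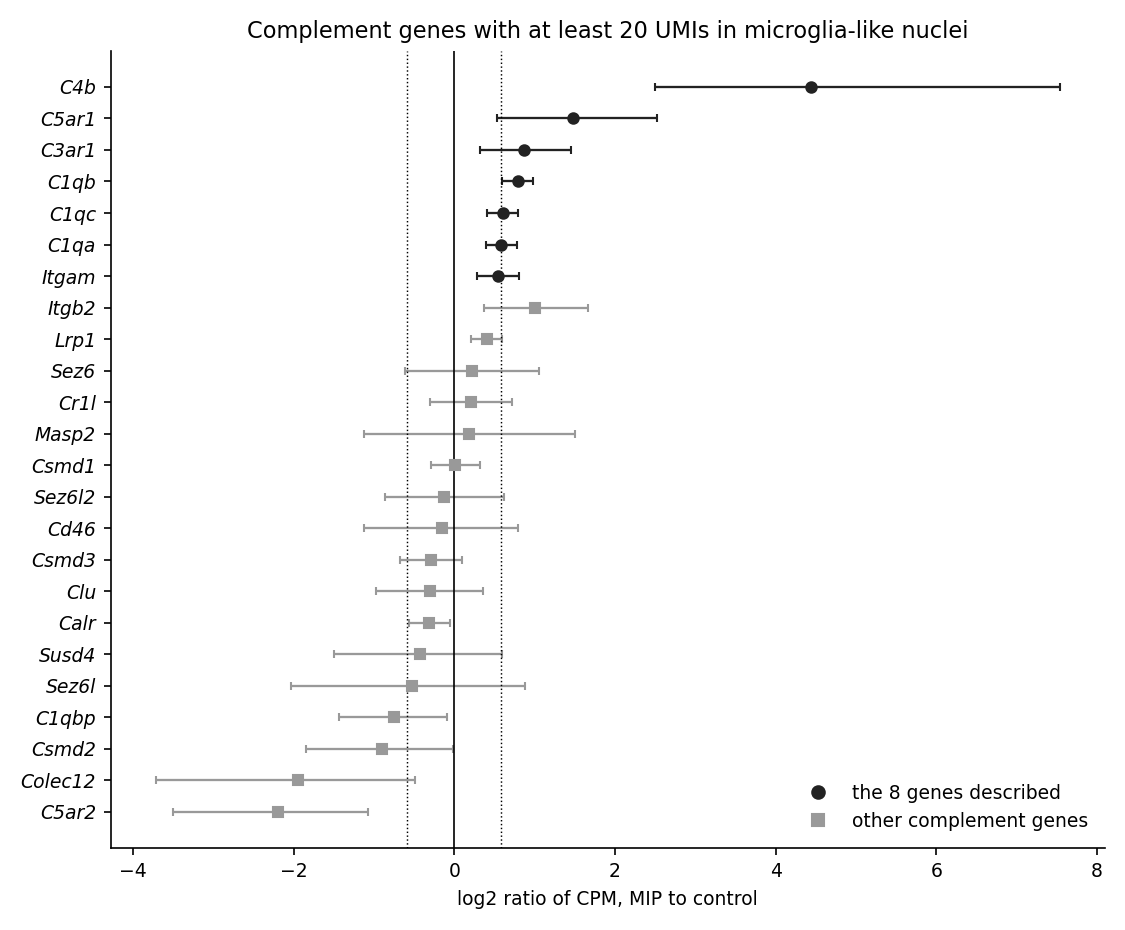
Log2 ratio of CPM, MIP to control, in microglia-like nuclei (x axis) for complement genes with at least 20 UMIs there (those reported), with exact 95% intervals of counting error; dotted lines mark 1.5-fold. The 7 of the 8 genes described that are shown (black circles) lie between 0.54 and 4.44, and the other complement genes (grey squares) between -2.20 and 1.01.

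In the named neural classes mean C1q per nucleus was not above that of the shallow barcodes, and its ratios there are given with that limit. In astroglia-like nuclei 2 of 4 members with at least 20 UMIs were higher by 1.5-fold (background 4.87%), C1qa at 1.11 (0.53 to 1.71) and C1qb at 1.11 (0.55 to 1.69). Per nucleus the C1q log2 ratio in astroglia was 0.38 (0.05 to 0.71), from 0.122 and 0.159 UMIs, at median depths of 5087 and 3627 UMIs. In spiny projection neuron-like nuclei C1qc had 0.0439 and 0.0408 UMIs per nucleus, a log2 ratio of -0.11 (-0.48 to 0.26), and C1qa 0.0429 and 0.0598, 0.48 (0.14 to 0.82). The summed microglial markers were lower in MIP in the same 2 classes, with log2 ratios of CPM of -0.55 (-0.72 to -0.38) in astroglia and -0.42 (-0.50 to -0.35) in spiny projection neurons.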

How the data were processed

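Nuclei from frozen mouse SVZ were counted in 2 libraries. The matrices deposited by the authors give, for each barcode and gene, a raw UMI count; per the submitters' processing notes Cell Ranger 5.0.1 and mm10 were used. Whether introns were counted, and whether animals were pooled, is not stated here. Barcodes with under 500 genes (0 control, 204 MIP) or over 5% mitochondrial UMIs (114 and 48) were left out. Scrublet (Scanpy 1.11.5) marked 0 doublets by its automatic threshold, so the top-scoring 0.8% per 1000 barcodes were removed (2302 and 1223). Both libraries were clustered together (Leiden, resolution 1, 3000 variable genes without complement genes, 40 components, 20 neighbours), and clusters were named from marker genes.

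UMIs were summed per class and library, with exact Poisson, Clopper-Pearson or conditional ratio intervals (SciPy 1.17.1). Ratios were set for classes of at least 100 nuclei per library, levels from 30 nuclei; those given for border macrophage-like and fibroblast-like nuclei fall below the limit for ratios and rest on few nuclei. Named genes were the members, complement genes with at least 60 UMIs and the 5 genes most like each member. Itgax, with 21 control and 4 MIP UMIs over kept nuclei, was an exception, picked after its values were seen. Alternatives were another resolution, filter, doublet handling, naming, thinning and scaling (edgeR 4.0.16). The members, lists and markers were chosen with earlier results of these data known. Interval code was tested on simulated data. Gene positions are from GENCODE M21, promoters from RefSeq. Some genes of the lists are counted in the sums but are not reported here by name.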

Additional observations from a re-analysis of the deposited data

Results flagged for a closer look

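On CPM, C1q and C5ar1 differed in direction between microglia-like and border macrophage-like nuclei. C1q also differed in direction between microglia-like and fibroblast-like nuclei. These differences were not tested. Counted per nucleus, the C1q ratio in border macrophage-like nuclei had an interval that included no difference. The log2 ratio of MIP to control for C1q was 0.66 in microglia-like nuclei, -0.41 in border macrophage-like nuclei (22 control and 24 MIP nuclei) and -2.46 in fibroblast-like nuclei. C1qb was at 0.79, -0.83 and -3.59 in the same classes. C1qa was at 0.59 in microglia-like and -1.43 in fibroblast-like nuclei, and C1qc at 0.60 and -2.08. C5ar1 was at 1.48 in microglia-like and -1.77 in border macrophage-like nuclei, the latter from only 18 control and 7 MIP UMIs. The fibroblast values rest on 1 control nucleus with 70 of the 75 C1q UMIs; without it the C1q log2 ratio there was 1.34 (-0.17 to 3.15). These intervals cover counting error only.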

How the results depend on the processing

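Of 61 values of the C1q results under other settings, 45 stayed within the interval of the reported value, 16 moved beyond it and 0 reversed. For single genes 472 of 528 stayed. The C1q share in microglia-like nuclei moved without doublet removal to 29.4% (control) and 41.0% (MIP), with at least 1000 genes per barcode to 37.8% (control), and with classes from the highest marker score to 44.0% (MIP). The C1q level moved to 1026 CPM (control) without doublet removal and to 895 CPM (control) and 1596 CPM (MIP) with the marker score. Outside the macrophage classes, C1q per 100 marker UMIs went from 14.3 to 11.97 (control) and from 24.7 to 23.3 (MIP) with at least 1000 genes. The C1q log2 ratio was 0.83 with the marker score, 0.82 with TMM scaling, 0.79 with median-of-ratios scaling and, chosen after seeing the data, 0.37 per nucleus; the 2 scalings shift every gene in microglia-like nuclei by 0.16 and 0.13. Thinned to 2000 UMIs, 83.9% (control) and 94.6% (MIP) of microglia-like nuclei had a C1q UMI, and barcodes under 2000 UMIs gave 177 CPM (MIP). Over all 13 alternatives the microglial log2 ratio ran from 0.37 to 0.83 for C1q, 3.91 to 5.47 for C4b, 1.19 to 2.46 for C5ar1, 0.58 to 1.14 for C3ar1 and 0.25 to 0.81 for Itgam. For C3, over 12 alternatives, it ran from -0.93 to 0.64 and so changed sign. The cause of these shifts was not tested. No paired analysis was possible because each group has 1 library, and for the same reason no replicate could be left out. Depth limits C3, with 3 and 4 UMIs in microglia-like nuclei, and C4b, with 2 in the control.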
